A study of Mus musculus with 6 samples.

Results

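The cytosolic ribosome of mouse inguinal fat is described here through the transcripts of its proteins, 84 genes among the 56691 of the deposited table. Members were the genes whose symbol is Rpl or Rps followed by a number, with or without the endings a, x, l, l1 or al, together with Rplp0, Rplp1, Rplp2 and Rpsa, and whose mean level over the 6 libraries was at least 1 FPKM (fragments scaled to exon length and to the library's total). The names gave 87 candidates, of which 52 large subunit and 32 small subunit genes reached the minimum. The 3 that did not were Rpl10l and Rps12l1, with no count in any library, and Rpl32l, with a mean of 0.297 FPKM. The lowest members were Rpl39l at 1.64, Rpl3l at 2.43 and Rps4l at 12.3 FPKM. The other members ranged up to 886 FPKM.

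Each ribosome carries 1 copy of most of its proteins, so cells make them in matched amounts. Their mRNAs are among the most abundant of any cell, and most begin with a short run of pyrimidines at the 5′ end, the terminal oligopyrimidine (TOP) tract, through which the kinase mTORC1 and the protein LARP1 control their translation and stability. Some ribosomal proteins have a second gene, a paralog, that is used in particular tissues or states. Fat contains adipocytes, vessels and immune cells, and the inguinal pad also holds a lymph node, whose lymphocytes devote a large share of their mRNA to ribosomal proteins.

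The series set single-housed against group-housed male C57BL/6J mice, an inbred laboratory strain, with 3 mice in each group and 1 bulk RNA-seq library of inguinal white adipose tissue per mouse. Mice were 8 weeks old at the start. For the next 8 weeks the single-housed mice lived with 1 mouse in a cage and the group-housed mice with 4 to 6 in a cage, and the labels name no transgene or drug. The labels do not say which group-housed mice shared a cage or a litter, so the p-values measure the spread between these mice only. The total gene count was 35318376, 21410779 and 24781206 in single-housed libraries 1, 2 and 3, against 22041314, 22002000 and 33982084 in group-housed libraries 1, 2 and 3.

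Muscle and lymphocyte RNA differed between libraries in ways that housing did not follow. Skeletal muscle markers (14 of 14 measured, none at 0 in any library) summed to 56.0, 46.8 and 4102 FPKM in single-housed libraries 1, 2 and 3, against 361, 1487 and 39.2 FPKM in group-housed libraries 1, 2 and 3. B and plasma cell markers (14 of 14 measured) summed to 1342, 1291 and 581 FPKM under single housing and to 1405, 978 and 1665 FPKM under group housing. T and NK cell markers (14 of 14 measured) summed to 342, 322 and 96.9 FPKM under single housing and to 323, 176 and 388 FPKM under group housing. By these sums, single-housed library 3 and group-housed library 2 had the most muscle and the least lymphocyte marker RNA. Within the B and plasma cell list, Jchain and Mzb1 departed from the sum. Jchain peaked in single-housed library 3, at 53.5 FPKM, and Mzb1 stood at 3.79 FPKM there, which was not its lowest value. Both genes were lowest in group-housed library 2, at 7.11 and 2.39 FPKM. Genes of the mitochondrial chromosome took 9.83%, 9.19% and 12.1% of counts in the single-housed libraries and 6.20%, 7.53% and 6.02% in the group-housed ones, with no overlap. All 10 white adipocyte markers were measured, and their mean is given in log2 CPM (CPM being counts scaled to library size). It was 10.60, 10.69 and 11.20 in single-housed libraries 1, 2 and 3, against 10.72, 11.15 and 10.17 in group-housed libraries 1, 2 and 3. Single-housed library 3 and group-housed library 2 thus also had the highest adipocyte marker levels.

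Pyrimidine runs were common near the members' start sites. Of the 84 members, 62 had a start site in the RefSeq promoter table (build GRCm38.p6), and in the window from 35 bases before to 25 bases after it, 36 of them (58.1%) held a run of at least 8 pyrimidines (C or T) on the gene's strand, against 26.6% of 27025 genes. The letters CTTTCC stood on the gene's strand in 12 members (19.4%), against 3.43% of all genes, and on the opposite strand in 3.23%, against 3.05% of all genes. These letters are all pyrimidines, so on the gene's strand they can lie inside such a run. The letters CCGGAA, searched on either strand over the 300 bases of the promoter, stood in 34 members (54.8%), against 16.7% of all genes. TATAAA on the gene's strand stood in the window of 6.45% of the 62 members, against 3.08% of all genes. These matches describe letters near annotated starts, which can lie some bases away from the start that fat cells use.

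The windows of 7 members that the comparisons below name are given, though none of those comparisons used the sequences. Rpl22l1, Rplp2, Rpl38 and Rps12 had the smallest p-values between housing groups among the members, Rpl4 is an abundant core member whose difference was small, and Rpl7l1 and Rpl3l are paralogs whose levels did not follow the family. Each is written 5′ to 3′ on the gene's strand, with the longest pyrimidine run in capitals. The GRCm38.p6 positions are chr3:28805473-28805532 (+) for Rpl22l1, chr7:141447616-141447675 (+) for Rplp2, chr11:114668545-114668604 (+) for Rpl38 and chr10:23787185-23787244 (-) for Rps12. Those of the other windows are chr9:64173352-64173411 (+) for Rpl4, chr17:46782632-46782691 (-) for Rpl7l1 and chr17:24727791-24727850 (+) for Rpl3l, the first of its 2 listed starts.
Rpl22l1: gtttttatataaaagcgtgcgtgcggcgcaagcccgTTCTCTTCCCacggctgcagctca
Rplp2: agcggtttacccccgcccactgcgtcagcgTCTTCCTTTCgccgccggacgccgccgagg
Rpl38: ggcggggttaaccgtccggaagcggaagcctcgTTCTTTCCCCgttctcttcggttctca
Rps12: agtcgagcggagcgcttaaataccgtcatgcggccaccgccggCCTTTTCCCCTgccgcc
Rpl4: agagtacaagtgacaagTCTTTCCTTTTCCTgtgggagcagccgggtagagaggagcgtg
Rpl7l1: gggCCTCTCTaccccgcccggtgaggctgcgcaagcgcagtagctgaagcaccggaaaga
Rpl3l: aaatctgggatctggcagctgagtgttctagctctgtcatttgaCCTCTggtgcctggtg
The longest run was 10 bases in Rpl22l1, Rplp2 and Rpl38, 11 in Rps12 and 14 in Rpl4. It was 7 bases in Rpl7l1 and 5 in Rpl3l, which is expressed in striated muscle. Short runs were not shared by all paralogs that departed from the family. In Rpl39l and in Rps27l (the first of its 2 listed starts), whose windows are not printed, the longest run was 9 bases. The runs differed in position. Their first base was at 2 in Rpl22l1, -5 in Rplp2, -2 in Rpl38, 9 in Rps12 and 10 in Rpl3l, with minus for bases before the annotated start. It was at -18 in Rpl4, -32 in Rpl7l1, -26 in Rpl39l and -22 in Rps27l. Those 4 runs ended before the annotated start, so run length alone does not mark a TOP tract.

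As a family, the members stood lower in single-housed than in group-housed fat on average, but the libraries of a group differed from each other as much as the groups did. The 84 genes took 2.75%, 2.70% and 1.79% of all counts in single-housed libraries 1, 2 and 3, against 3.70%, 2.49% and 3.26% in group-housed libraries 1, 2 and 3. Their summed level was 15846, 15485 and 10391 FPKM under single housing (mean 13907 ± 3051, SD, n = 3) and 21518, 14437 and 18639 FPKM under group housing (mean 18198 ± 3561, SD, n = 3). Group-housed library 1 was the highest and single-housed library 3 the lowest, and single-housed libraries 1 and 2 lay above group-housed library 2, so the groups overlapped. The sum in group-housed library 1 was 2.07 times that in single-housed library 3 and 1.49 times that in group-housed library 2.

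The order of the libraries was nearly the same gene by gene. Group-housed library 1 held the highest FPKM for 75 members (89.3%), against 18.4% of the 14184 genes with a mean of at least 1 FPKM. Single-housed library 3 held the lowest FPKM for 79 members (94.0%), against 49.6% of those genes. Both were true of 74 members, against 10.3% of those genes. For 54 members single-housed libraries 1 and 2 both lay between group-housed libraries 2 and 3. Deposited FPKM are not corrected for composition. The lowest family sums were those of single-housed library 3 and group-housed library 2, the libraries with the lowest lymphocyte and the highest muscle marker levels. These libraries also had the highest adipocyte marker levels. At the top the orders differed. Group-housed library 1 had the highest family sum, with B, T and muscle marker sums of 1405, 323 and 361 FPKM. Group-housed library 3 had 1665, 388 and 39.2 FPKM of these markers. The part of lymph node, muscle and adipocyte content in the family's level was not tested. In bulk tissue, fewer cells of a type and less RNA per cell cannot be told apart.

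**Figure D1:**
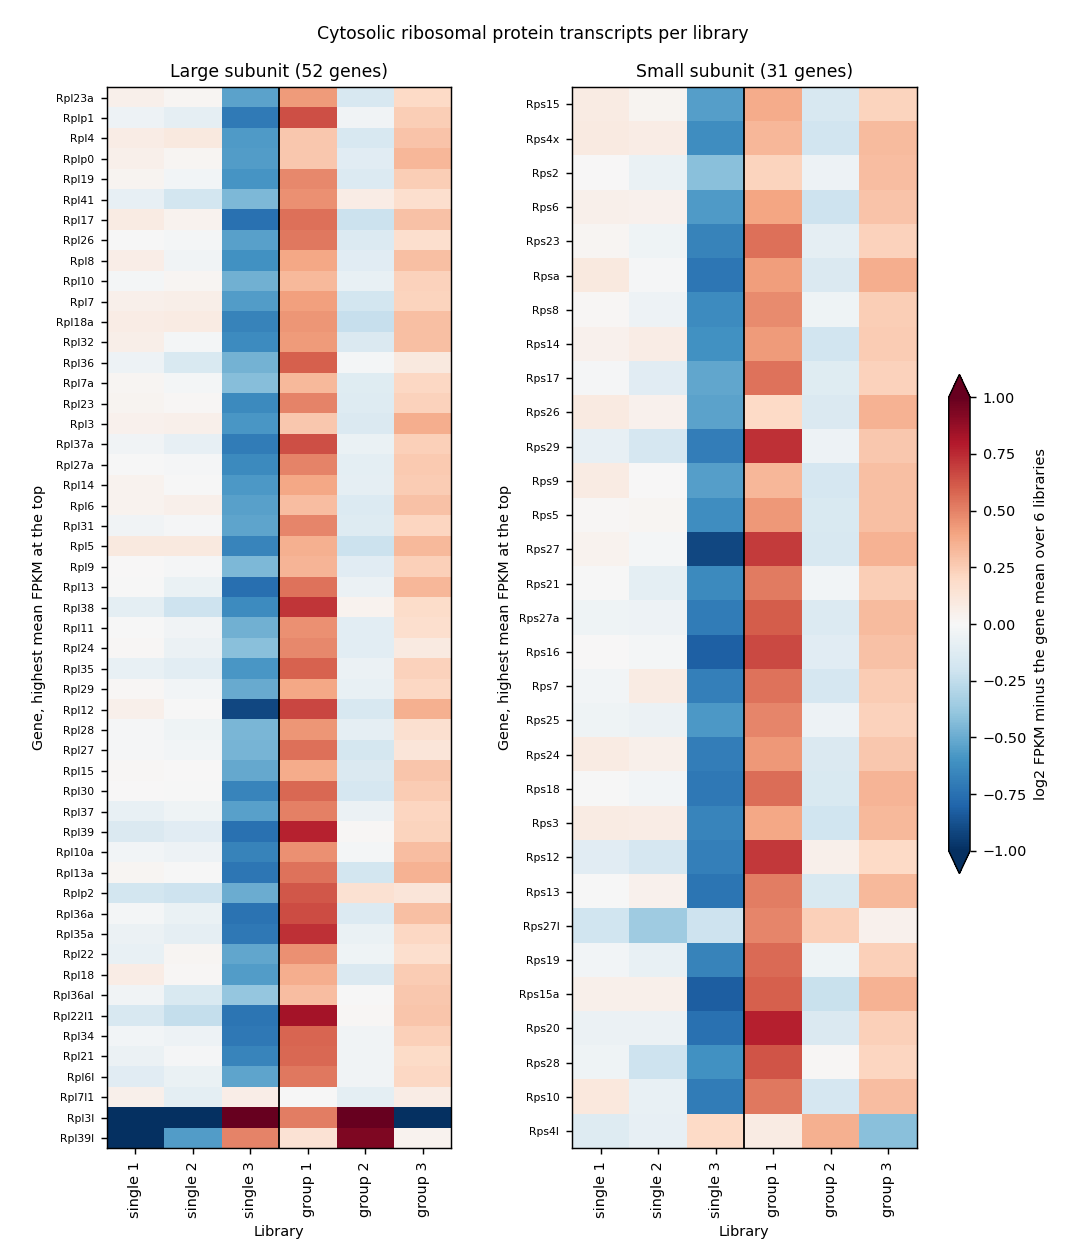
Level of 83 of the 84 members in the 6 libraries, as log2 FPKM minus the gene's mean over the 6 libraries (colour, drawn at the end colour beyond -1 and 1), with large subunit genes on the left, small subunit genes on the right and the highest mean FPKM at the top. Most rows are darkest blue in single-housed library 3 and darkest red in group-housed library 1, and Rpl3l, Rpl39l, Rps4l, Rpl7l1 and Rps27l depart from that pattern.

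Both subunits moved in step. Large subunit genes summed to 9137, 8953 and 6092 FPKM in single-housed libraries 1, 2 and 3, against 12546, 8444 and 10743 FPKM in group-housed libraries 1, 2 and 3. Small subunit genes summed to 6709, 6532 and 4299 FPKM under single housing and to 8972, 5994 and 7896 FPKM under group housing. The ratio of small to large was 0.734, 0.730 and 0.706 under single housing and 0.715, 0.710 and 0.735 under group housing. The ratio thus spanned nearly the same range in both groups, and on the log2 scale the group means differed by 0.006, less than the pooled SD of 0.029. Among single libraries it was lowest in single-housed library 3 and next lowest in group-housed library 2.

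**Figure D2:**
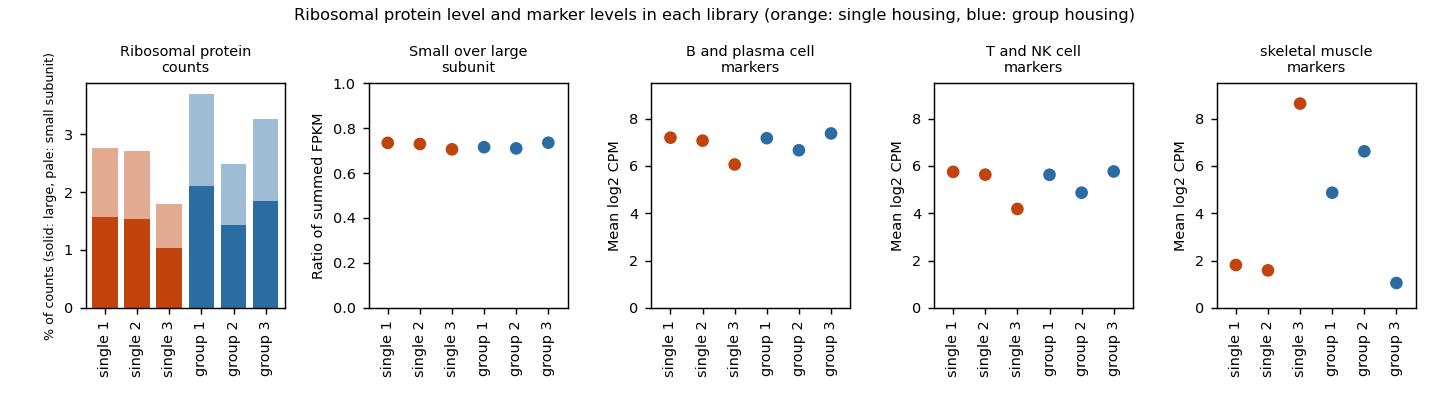
Ribosomal protein share of counts in percent (bars, solid for the large and pale for the small subunit), ratio of small to large subunit FPKM, and mean log2 CPM of B and plasma cell, T and NK cell and skeletal muscle markers, 1 bar or point per library with single housing in orange and group housing in blue. Single-housed library 3, at 1.79% of counts, and group-housed library 2, at 2.49%, have the lowest lymphocyte and the highest muscle points, while the subunit ratio stays between 0.706 and 0.735.

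Gene by gene, no member differed between housing groups past the threshold. Counts were tested over 18085 genes with edgeR's quasi-likelihood F test, and a gene was called at a Benjamini-Hochberg adjusted p below 0.05. By that rule 0 of the 84 members and 0% of all genes were called, and the smallest adjusted p of a member was 0.609. DESeq2 called 1.14% of all genes and 0 members, with a smallest adjusted p of 0.218 among members. At an unadjusted edgeR p below 0.05, 12 members were lower in single housing (8 large and 4 small subunit genes, 14.3% of the 84), against 3.47% of all genes, and 0 were higher, against 3.49% of all genes. The log2 fold change, single minus group housing, lay below 0 in 81 of the 84 members, against 51.9% of all genes. Its median was -0.33 over the members, -0.30 over the large subunit and -0.36 over the small subunit, and -0.01 over all genes. The members share their libraries and rise and fall together, so these counts do not stand for 84 separate observations. The mitochondrial share of counts, given above, also separated the groups, and its part in these differences was not tested.

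The count of 12 changed with the library left out, which also leaves fewer mice in its group. Without group-housed library 1 there were 2 such members, against 2.54% of all genes, without single-housed library 2 there were 3, against 2.37%, and without single-housed library 3 there were 4, against 3.98%. Without group-housed library 2 there were 26, against 3.85% of all genes. The count moved less without single-housed library 1 (8, against 2.94%) and without group-housed library 3 (10, against 2.73%). With all libraries, DESeq2 gave 19 members at an unadjusted p below 0.05, against 3.77% of all genes, and edgeR with no filter on low counts gave 21, against 2.76%. The family's median log2 fold change was -0.18 without group-housed library 1 and -0.19 without single-housed library 3, and -0.42 without group-housed library 2. Without both muscle-rich libraries (group-housed 2 and single-housed 3) the median was -0.31 and 33 of 83 members were lower at an unadjusted p below 0.05, against 5.96% of all genes, and 0 were called. With the level of B and plasma cell markers as a covariate the median was -0.21 and 22 members were lower at that p, against 7.84% of all genes. With the T and NK cell level it was -0.26 and 38 members, against 9.03% of all genes. With the muscle level it was -0.36 and 53 members, against 12.2% of all genes. No member had an adjusted p below 0.05 in any of these fits.

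In the deposited FPKM, 15 members (11 large and 4 small subunit genes) had all 3 single-housed values below all 3 group-housed values, or 17.9% of the 84, against 9.01% of all genes. No member had all single-housed values above, against 4.86% of all genes. After TMM scaling, edgeR's correction for composition, the lower count was 23 members, against 6.78% of all genes, and the higher count 0, against 6.61%. The 12 members with an unadjusted p below 0.05 were all among the 15, and after TMM scaling all of them but Rps27l kept the groups apart.

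Rpl22l1, the paralog of the large subunit protein Rpl22, had the smallest p. In the deposited mm39 coordinates it lies at chr3:28859585-28861573 on the plus strand. Its level was 39.7, 37.6 and 26.8 FPKM in single-housed libraries 1, 2 and 3 (mean 34.7 ± 6.93, SD, n = 3), against 79.0, 44.8 and 53.8 FPKM in group-housed libraries 1, 2 and 3 (mean 59.2 ± 17.7). Every single-housed value lay below every group-housed value, and group-housed library 1 stood well above the rest. The log2 fold change was -0.69 ± 0.22 (SE; edgeR adjusted p = 0.609, unadjusted p = 0.016), and it was -0.42 without group-housed library 1.

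The stalk proteins Rplp1 and Rplp2 form the flexible arm of the large subunit that recruits translation factors, and Rplp0 is the base to which they bind. Rplp2 was at 72.1, 70.9 and 58.1 FPKM in single-housed libraries 1, 2 and 3, against 126, 90.9 and 89.0 FPKM in group-housed libraries 1, 2 and 3 (log2 fold change -0.53 ± 0.17 SE, edgeR adjusted p = 0.612). Rplp1 was at 531, 516 and 336 FPKM under single housing and at 859, 535 and 650 FPKM under group housing (-0.49 ± 0.21, adjusted p = 0.727). Rplp0 was at 432, 422 and 283 FPKM under single housing and at 501, 386 and 524 FPKM under group housing (-0.23 ± 0.18, adjusted p = 0.848). The groups did not overlap for Rplp1 and Rplp2 and overlapped for Rplp0, where group-housed library 2 lay below single-housed libraries 1 and 2.

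Rpl38 and Rpl39, also small members of the large subunit, were lower in every single-housed library than in every group-housed one. Rpl38, a surface protein whose loss in mice causes the tail-short phenotype, was at 119, 110 and 82.4 FPKM in single-housed libraries 1, 2 and 3, against 209, 130 and 145 FPKM in group-housed libraries 1, 2 and 3 (log2 fold change -0.55 ± 0.20 SE, edgeR adjusted p = 0.651). Rpl39, a very small protein lining the exit tunnel of the growing peptide, was at 80.5, 82.3 and 53.1 FPKM under single housing and at 152, 89.7 and 104 FPKM under group housing (-0.60 ± 0.22, adjusted p = 0.666). Neither gene's groups overlapped, and the gap between the lowest group-housed and the highest single-housed library was small for both.

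In the small subunit, Rps12, Rps28 and Rps29 had the smallest p-values, apart from the paralog Rps27l described below. Rps12 was at 71.8, 69.0 and 48.2 FPKM in single-housed libraries 1, 2 and 3, against 127, 80.5 and 89.1 FPKM in group-housed libraries 1, 2 and 3 (log2 fold change -0.57 ± 0.20 SE, edgeR adjusted p = 0.651). Rps28 was at 38.6, 34.5 and 26.2 FPKM under single housing and at 61.7, 40.2 and 46.1 FPKM under group housing (-0.49 ± 0.18, adjusted p = 0.664). Rps29 was at 196, 185 and 129 FPKM under single housing and at 344, 200 and 251 FPKM under group housing (-0.56 ± 0.21, adjusted p = 0.682). In all 3 genes the single-housed values lay below the group-housed ones, and group-housed library 2 was the one closest to them. The remaining members with an unadjusted p below 0.05 were Rpl36al, Rps27l, Rpl41, Rpl6l and Rpl35, at log2 fold changes of -0.30, -0.43, -0.39, -0.39 and -0.43.

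Abundant members other than Rplp1 are described next. Rps15, a small subunit protein needed for late steps of its assembly, had the highest mean level and was at 918, 887 and 594 FPKM in single-housed libraries 1, 2 and 3, against 1125, 776 and 1015 FPKM in group-housed libraries 1, 2 and 3 (log2 fold change -0.20 ± 0.19 SE, edgeR adjusted p = 0.864). Rpl23a, at the mouth of the exit tunnel, was at 658, 643 and 439 FPKM under single housing and at 852, 568 and 729 FPKM under group housing (-0.22 ± 0.19, adjusted p = 0.858). Rpl4, which lines that tunnel, was at 473, 478 and 303 FPKM under single housing and at 539, 401 and 547 FPKM under group housing (-0.16 ± 0.19, adjusted p = 0.888). In these genes the groups overlapped, with group-housed library 2 below single-housed libraries 1 and 2. The small subunit gene Rps4x also overlapped between groups, at a mean of 397 ± 101 FPKM under single housing and 483 ± 93.8 FPKM under group housing (SD, n = 3 each; log2 fold change -0.20, edgeR adjusted p = 0.872).

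The size of the difference varied with coding length. For 82 members with an annotated coding sequence (GENCODE vM21, longest per gene; Rpl6l and Rps4l had none), the Spearman correlation of coding length with log2 fold change was 0.66 across genes, a description of these 6 libraries in genes that are not independent. The 28 shortest members (46 to 133 codons) had a median log2 fold change of -0.43, and 10 of the 12 members with an unadjusted p below 0.05 were among them. The 27 of middle length (135 to 194 codons) had a median of -0.31, and 1 of the 12 was among them. The 27 longest (194 to 419 codons) had a median of -0.23 and none of the 12. The remaining one of the 12, Rpl6l, had no length.

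Tested genes outside the family showed a smaller shift over the same lengths, with a median of -0.09 over 853 genes in the range of the shortest members, -0.04 over 945 in the middle range and -0.01 over 4694 in the longest range. The correlation was between 0.50 (without group-housed library 2) and 0.65 (without group-housed library 3) when 1 library at a time was left out, and 0.64 without both muscle-rich libraries, on differences of mean log2 CPM. Within single libraries, the members' deviation from the family median, centred on each gene's own mean, had a Spearman correlation with coding length of 0.57, 0.54 and 0.11 in single-housed libraries 1, 2 and 3, against -0.60, -0.42 and 0.35 in group-housed libraries 1, 2 and 3. Long members were thus relatively high in single-housed libraries 1 and 2 and relatively low in group-housed libraries 1 and 2, while group-housed library 3 had the sign of the single-housed ones. The correlation of log2 fold change with mean FPKM was 0.39, in the same 82 genes.

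**Figure D3:**
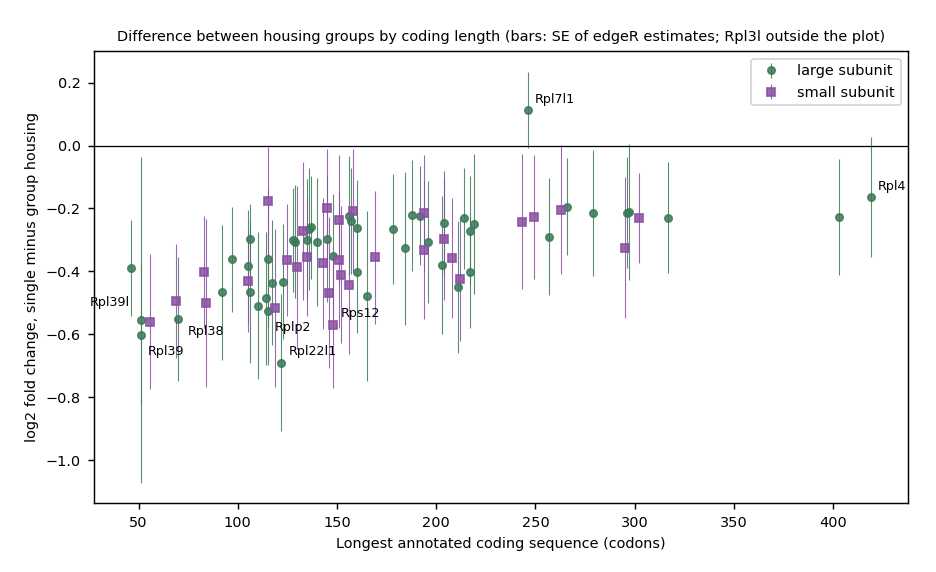
Log2 fold change of each member, single minus group housing, from edgeR with its SE (vertical bars), against the longest annotated coding sequence in codons, with large subunit genes as green circles and small subunit genes as purple squares. Short members such as Rpl39, Rpl38 and Rpl22l1 lie lowest, at -0.60, -0.55 and -0.69, and the long Rpl4 lies at -0.16, while Rpl3l at 1.47 is outside the plot.

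Departures from the family were sought by scaling each library to the summed count of its members in place of all genes. In that fit 0 members were called higher, against 0% of all genes, and 0 lower, against 0.00553% of all genes, with a smallest edgeR adjusted p of 0.607 among members. At an unadjusted p below 0.05 there were 0 members in either direction, against 5.45% of all genes higher and 0.957% lower. Relative to the family 46 members lay below 0, against 16.6% of all genes. The scaling itself sets the members near 0, at a median of -0.03, and moves all genes to a median of 0.28. The shares of members and of all genes in this fit therefore say nothing about the members as a family. The smallest p-values were those of Rpl22l1 (log2 fold change -0.37 ± 0.21 SE, edgeR adjusted p = 0.607) and Rpl7l1 (0.43 ± 0.27, adjusted p = 0.607). Rpl39, Rps12, Rpl38 and Rps29 followed on the lower side, at -0.29, -0.26, -0.23 and -0.24. On the higher side were Rpl3l at 1.89, Rps4l at 0.36, Rpl4 at 0.13 and Rpl7a, a large subunit protein, at 0.11. Rpl7a was at 231, 225 and 170 FPKM in single-housed libraries 1, 2 and 3, against 286, 210 and 263 FPKM in group-housed libraries 1, 2 and 3, with the overlap that most members showed.

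The libraries carried nearly the same mix of ribosomal protein mRNAs. For each member, the log2 CPM minus the family's median was followed over the 6 libraries, and its range had a median of 0.28 over the members. It was under 0.5 in 77 of the 84. The widest ranges were those of Rpl3l at 7.78, Rpl39l at 2.05, Rps4l at 1.49, Rpl7l1 at 1.29 and Rps27l at 0.70, which are all paralogs. Rpl3l, Rpl39l, Rps4l and Rpl7l1 were also the members of lowest mean level, at 2.43, 1.64, 12.3 and 23.3 FPKM. The part of low level in these ranges was not tested. Rps2, which is in no paralog pair, came next at 0.58, and the paralog Rpl22l1, at a mean of 46.9 FPKM, had a range of 0.42.

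Of the 8 paralog pairs compared, 7 had both genes above 0 in every library, and Rpl10l, a gene active in the testis, had no count beside its X-linked partner Rpl10 at 277 ± 50.2 FPKM under single housing and 345 ± 48.3 FPKM under group housing (SD, n = 3 each). Rpl22l1 reached 61.3%, 54.5% and 56.4% of the FPKM of Rpl22 in single-housed libraries 1, 2 and 3, against 84.5%, 67.8% and 70.4% in group-housed libraries 1, 2 and 3. Every single-housed ratio lay below every group-housed one. The log2 ratio differed by -0.37 (exact permutation test, two-sided, p = 0.1, below which 3 against 3 cannot go, adjusted p = 0.7 over the 7 pairs), and by -0.27 to -0.43 with 1 library left out. Rpl22 itself was at 64.8, 69.0 and 47.5 FPKM under single housing and at 93.5, 66.1 and 76.4 FPKM under group housing, with overlap. In mice, the Rpl22 protein is known to repress expression of Rpl22l1.

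Rpl3l, the form of Rpl3 made in skeletal muscle and heart, had 7, 5 and 413 counts in single-housed libraries 1, 2 and 3, against 26, 124 and 2 counts in group-housed libraries 1, 2 and 3. That came to 0.12, 0.14 and 10.1 FPKM under single housing and to 0.72, 3.43 and 0.04 FPKM under group housing. The highest libraries were single-housed 3, then group-housed 2, then group-housed 1, which is also the order of the skeletal muscle markers. Rpl3, whose extension reaches towards the peptidyl transferase centre, was at 187, 188 and 121 FPKM under single housing and at 218, 164 and 233 FPKM under group housing. Relative to Rpl3, Rpl3l was 0.064%, 0.074% and 8.36% under single housing and 0.33%, 2.09% and 0.017% under group housing. Its log2 fold change was 1.47 ± 1.81 (SE, edgeR adjusted p = 0.89), rested on single-housed library 3 and was -3.39 without it.

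The ratios of other paralogs to their partners were highest in the same libraries. In 6 of the 7 pairs the ratio of paralog to partner was highest in single-housed library 3 and second highest in group-housed library 2, the exception being Rpl22l1. In each pair the partner was at its lowest FPKM in single-housed library 3. Rpl3l was the only paralog with its highest FPKM there. Rps27l, which p53 induces, was at 53.9, 48.6 and 53.7 FPKM in single-housed libraries 1, 2 and 3, against 86.9, 73.0 and 63.8 FPKM in group-housed libraries 1, 2 and 3 (log2 fold change -0.43 ± 0.16 SE, edgeR adjusted p = 0.678). These groups did not overlap in FPKM but did after TMM scaling, and single-housed library 3 was not the lowest. Its partner Rps27 was at 185, 178 and 96.0 FPKM under single housing and at 293, 161 and 229 FPKM under group housing, which overlap. Their ratio was 29.2%, 27.3% and 55.9% under single housing and 29.7%, 45.2% and 27.9% under group housing (exact permutation p = 0.9).

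Rpl7l1, related to Rpl7, kept an even level, at 24.2, 21.8 and 24.4 FPKM in single-housed libraries 1, 2 and 3, against 23.3, 21.7 and 24.6 FPKM in group-housed libraries 1, 2 and 3. No library stood apart, and its log2 fold change was 0.11 ± 0.12 (SE, edgeR adjusted p = 0.877). Rpl7 varied with the family, at 285, 286 and 187 FPKM under single housing and 366, 242 and 322 FPKM under group housing. The ratio of Rpl7l1 to it was 8.49%, 7.62% and 13.1% under single housing and 6.36%, 8.98% and 7.64% under group housing (exact permutation p = 0.5). Rpl36al, an autosomal copy of the X-linked Rpl36a, was at 48.8, 45.0 and 38.2 FPKM under single housing and at 62.1, 49.9 and 60.2 FPKM under group housing, without overlap (log2 fold change -0.30 ± 0.11 SE, edgeR adjusted p = 0.675). Rpl36a was at 79.1, 76.5 and 48.1 FPKM under single housing and at 126, 73.0 and 98.4 FPKM under group housing, with overlap. Rpl36al thus stood at 61.8%, 58.8% and 79.5% of Rpl36a under single housing and at 49.3%, 68.4% and 61.2% under group housing (exact permutation p = 0.5).

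Rpl39l, best known from the testis, had 21, 18 and 43 counts in single-housed libraries 1, 2 and 3, against 30, 52 and 43 counts in the group-housed ones, and made up 0.89% to 3.93% of Rpl39 under single housing and 1.08% to 3.17% under group housing. Rps4l was at 11.04, 11.45 and 13.85 FPKM under single housing and at 12.8, 15.5 and 9.04 FPKM under group housing, or 2.41% to 4.95% and 1.69% to 4.12% of the X-linked Rps4x. Neither separated the groups (exact permutation p = 1 and 0.5). Rps4l overlaps Tmtc1, which has at least 10% as many counts, so its level is uncertain without strand. For Rpl3l, Rpl39l, Rps27l and Rps4l, the group difference in the log2 ratio to the partner changed sign when single libraries were left out.

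**Figure D4:**
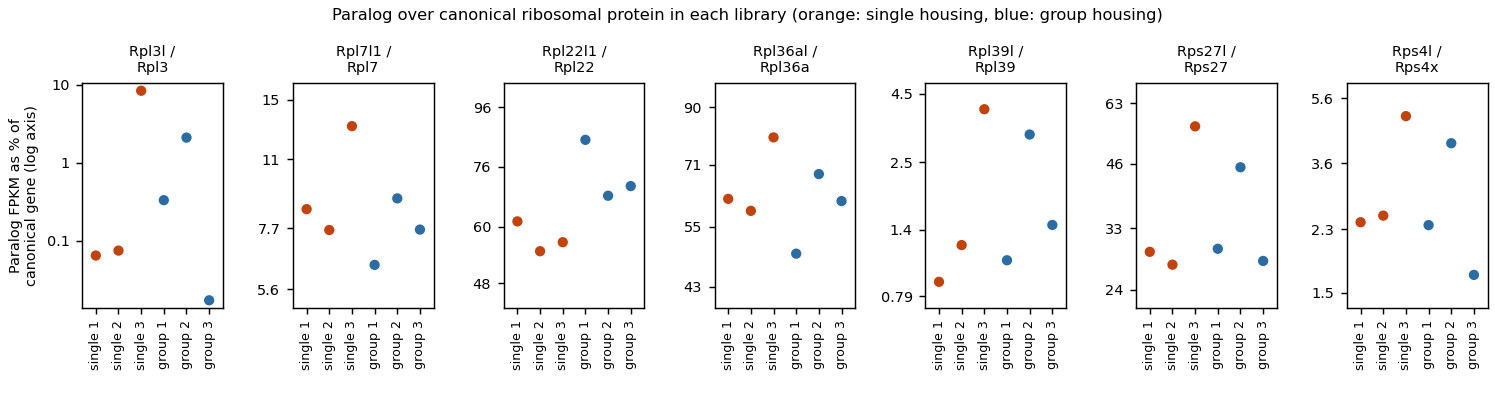
FPKM of each paralog as a percentage of its canonical partner in every library (log axis), for 7 pairs, with single housing in orange and group housing in blue. Rpl22l1 over Rpl22 separates the groups, at 54.5% to 61.3% against 67.8% to 84.5%, and in the other pairs single-housed library 3 and group-housed library 2 are the highest points.

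Genes around the ribosome were followed in lists. Fau and Rack1, ribosomal proteins that the naming rule leaves out, had log2 fold changes of -0.40 and -0.26 (edgeR adjusted p = 0.81 and 0.845). Rps3a1, also outside the rule, was at 995, 980 and 619 FPKM in single-housed libraries 1, 2 and 3, against 1351, 869 and 1173 FPKM in group-housed libraries 1, 2 and 3, the same order as the members. Of 20 other genes with TOP mRNAs, such as elongation factors, 17 lay below 0 with a median of -0.15, and 0 had an unadjusted p below 0.05. The smallest p-values there were those of Vim, an intermediate filament, at -0.27 ± 0.13, Eef1b2, an elongation factor subunit, at -0.34 ± 0.19, and Btf3, of the nascent chain complex, at -0.26 ± 0.14 (SE; edgeR adjusted p = 0.764, 0.794 and 0.794).

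Of 31 initiation and elongation factors and their regulators, 15 lay below 0, with a median of 0.02 and 0 at an unadjusted p below 0.05 in either direction. Eif4ebp2, a repressor of cap-dependent initiation, had the smallest p there, at 0.30 ± 0.16, followed by Eef2k at 0.32 ± 0.21 and Eif5a at -0.20 ± 0.14 (SE; edgeR adjusted p = 0.788, 0.829 and 0.834). Of 46 ribosome biogenesis genes, 34 lay below 0 with a median of -0.10, and 3 were lower at an unadjusted p below 0.05 (6.52%, against 3.47% of all genes) and 0 higher. These were the nucleolar genes Gnl3, Nhp2 and Nop56. Gnl3 averaged 9.003 ± 0.601 FPKM under single housing and 11.7 ± 1.48 FPKM under group housing, Nhp2 19.6 ± 2.27 and 25.7 ± 1.18 FPKM, and Nop56 17.4 ± 3.51 and 23.7 ± 3.07 FPKM (SD, n = 3 each; edgeR adjusted p = 0.635, 0.651 and 0.682).

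Of 23 genes of mTORC1 and TOP mRNA control, 9 lay below 0 with a median of 0.07. At an unadjusted edgeR p below 0.05, 1 of the 23 was higher, against 3.49% of all genes, and 1 lower, against 3.47%. Counts this small are near those shares. Mtor, the kinase itself, was higher at an unadjusted p below 0.05, at 7.64, 7.45 and 8.16 FPKM in single-housed libraries 1, 2 and 3, against 5.95, 6.87 and 6.77 FPKM in group-housed libraries 1, 2 and 3 (log2 fold change 0.34 ± 0.14 SE, edgeR adjusted p = 0.701). Ddit4, an inhibitor of mTORC1, was lower, at 20.2, 17.7 and 11.7 FPKM under single housing and at 31.2, 17.4 and 29.5 FPKM under group housing (-0.57 ± 0.23, adjusted p = 0.707). The groups were apart for Mtor and overlapped for Ddit4 through group-housed library 2. Myc, a transcription factor that drives ribosome synthesis, averaged 7.38 ± 2.88 FPKM under single housing and 11.3 ± 2.46 FPKM under group housing (SD, n = 3 each; edgeR adjusted p = 0.775).

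Of 9 genes of the response to unbalanced ribosomal proteins, 4 lay below 0. At an unadjusted edgeR p below 0.05, 1 of the 9 was lower, against 3.47% of all genes, and 0 were higher, against 3.49%. The lower one was the p53 target Bax, at 9.57 ± 2.14 FPKM under single housing and 14.7 ± 1.43 FPKM under group housing (SD, n = 3 each; log2 fold change -0.54 ± 0.16 SE, edgeR adjusted p = 0.586). Cdkn1a and Zmat3 followed at -0.30 ± 0.20 and 0.17 ± 0.13 (SE; adjusted p = 0.837 and 0.845). None of the genes of these pathway lists passed the adjusted threshold of edgeR.

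The ribosome of the mitochondrion, encoded by separate nuclear genes, gave another picture. Its 78 genes summed to 1233, 1164 and 1235 FPKM in single-housed libraries 1, 2 and 3, against 1418, 1250 and 1089 FPKM in the group-housed ones, and single-housed library 3 was not low. Of the 78 genes, 32 lay below 0 with a median log2 fold change of 0.03, where the cytosolic members had a median of -0.33. Group-housed library 1 held the highest FPKM for 52 of them and group-housed library 3 the lowest for 44. The difference between the cytosolic and mitochondrial sets was not tested.

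Marker levels of the other cell types also varied. Macrophage and monocyte markers had 9 of 10 genes below 0 and a median log2 fold change of -0.46, with 5 lower at an unadjusted edgeR p below 0.05, against 3.47% of all genes, and 3 called by DESeq2, against 1.14% of all genes. Their sums overlapped, at 571 to 885 FPKM under single housing and 822 to 1267 FPKM under group housing, while their mean log2 CPM did not, at 5.22 to 5.50 under single housing and 5.86 to 5.97 under group housing. Lymph node stroma and vessel markers (9 measured) summed to 263 to 693 FPKM under single housing and to 401 to 727 FPKM under group housing. Adipose progenitor markers summed to 308 to 484 FPKM under single housing and to 488 to 693 FPKM under group housing, without overlap in the sum, but their mean log2 CPM, at 6.77 to 7.66 under single housing and 6.98 to 7.81 under group housing, overlapped. Endothelial markers summed to 147 to 176 FPKM under single housing and to 123 to 138 FPKM under group housing, without overlap. Cycling cell markers summed to 14.4 to 21.5 FPKM under single housing and 9.44 to 23.4 FPKM under group housing, and mammary and skin epithelial markers to 0.77 to 1.91 and 0.96 to 2.01 FPKM. The part of these cells in the ribosomal protein levels was not tested.

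Counting itself limits some members. Ribosomal protein genes have many processed pseudogenes, and the table holds 322 rows of them, with 3.27 to 3.44 counts per 100 counts of the members in single-housed libraries and 3.24 to 3.38 in group-housed ones. For 12 members, pseudogene rows held more than 10% as many counts as the gene itself, up to 128% for Rps10, 48.0% for Rpl21 and 44.6% for Rps7, and 13.9% for Rpl38 and 10.2% for Rps12. There were also 10 members, among them Rpl23a with Tlcd1 and Rps28 with Kank3, that overlap a gene with at least 10% as many counts, and the sources used here do not say whether counting used strand. A total of 23 members host small nucleolar RNA genes in their spans, at 31 rows. The levels of these members are uncertain to that extent.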

How the data were processed

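Bulk RNA-seq libraries of 6 mice were compared, 3 single-housed and 3 group-housed, grouped by the sample labels. RNA from frozen tissue had integrity numbers that the labels' protocols give as passing the submitters' limit. The deposited table holds the authors' raw counts per gene, whole numbers without normalization per the file headers, and FPKM, which equalled the deposited counts divided by exon length and library total within 0.0051 for 100% of values. The other deposited sheet repeats these counts. The submitters' processing notes name genome build mm39. The aligner, counter, annotation release and strand setting are not given in the sources at hand. A further 24 columns of other tissues were not used.

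Counts were tested with edgeR 4.0.16 in R 4.3.3 (filterByExpr, TMM, quasi-likelihood F test, two-sided, Benjamini-Hochberg over 18085 genes, threshold 0.05). Log2 fold changes are single over group housing, and SE is the absolute log2 fold change over the square root of F. A second fit scaled each library to the members' summed count. Paralog log2 FPKM ratios went through a two-sided exact permutation test. The test was tried on simulated counts. Alternatives were other size factors, DESeq2 1.42.0, no filter, limma 3.58.1 on log2 FPKM with pseudocounts of 1 and 0.1, marker levels as covariates, left-out libraries and a replicate block. Promoter windows are from RefSeq (GRCm38.p6) and coding lengths from GENCODE vM21. No coordinates were converted between builds.

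Named members are the 6 of highest mean FPKM, those of smallest p in each direction in both fits (6 and 5), the 5 that varied most against the family, both genes of every paralog pair, the stalk proteins, those next to the minimum level, and 3 genes of smallest p per list. Rpl41, Rpl6l, Rpl35 and the members with many pseudogene or overlapping counts were named to complete a count, after their values were seen. A member and a listed gene that the rule names are not reported here. Members, lists and tests were chosen with earlier results of these data known. Same-numbered libraries did not deviate together, so replicate numbers were not taken as pairs.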

Additional observations from a re-analysis of the deposited data

How the results depend on the processing

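Relative to all genes, the number of members called past the adjusted threshold was 0 under every alternative run, and the member median stayed below 0, between -0.42 and -0.18. Genes called over the whole table numbered 0 in the reported fit, 207 with DESeq2, 53 with no filter, 22 without the muscle-rich libraries (single-housed 3 and group-housed 2), and 344, 407 and 1011 with B and plasma cell, T and NK cell and skeletal muscle levels as covariates. Members lower at an unadjusted p below 0.05 numbered 12, then 19 with DESeq2, 21 with no filter, 33 without both libraries, 22, 38 and 53 with those covariates, and 2 to 26 with 1 library left out. The share of all genes lower at that p moved too. In the same order it was 3.47%, 3.77%, 2.76%, 5.96%, then 7.84%, 9.03% and 12.2%, and 2.37% to 3.98%. The replicate numbers do not pair the samples (correlations 0.12, -0.56 and -0.70), and with the replicate block 7 members were lower at that p, against 1.87% of all genes, Rpl3l turned to -1.20 (-1.01 relative to the family), the Rpl22l1 to Rpl22 difference was -0.37 (exact permutation p = 0.25), and no member was called. When libraries were scaled to the family, 1 member was called lower with the B and plasma cell covariate, Rpl3l at -1.85 (edgeR adjusted p = 0.00277).

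Signs turned in genes near 0 or low in counts. Rpl3l was at -2.002 and -1.27 with the B and T cell covariates (-1.08 relative to the family with the T cell covariate), and ranged from -3.39 to 3.51 with 1 library left out (-3.39 to 4.26 relative to the family). Rps4l was at -0.036 with total counts, -0.012 and -0.010 in limma with pseudocounts of 1 and 0.1, -0.12 and -0.039 with the B and T cell covariates, and from -0.16 to 0.29 with 1 library left out (-0.0053 to 0.77 relative to the family). Relative to the family, Rpl39l ranged from -1.10 to 0.35, Rps27l from -0.36 to 0.063, Rpl22 from -0.042 to 0.052, Rpl36al from -0.10 to 0.084, Rpl3 from -0.0073 to 0.13 and Rplp0 from -0.0088 to 0.11 with 1 library left out. Rpl36al was at -0.038 without both libraries and at -0.075 and -0.042 with the B and T cell covariates, and Rpl22 at -0.038 and -0.019. The single-minus-group difference of the paralog log2 ratio was also followed with 1 library left out. It ranged from -1.72 to 2.19 for Rpl3l, -0.70 to 0.38 for Rpl39l, -0.24 to 0.30 for Rps27l and -0.044 to 0.64 for Rps4l. Without both libraries this difference was -0.12 for Rpl3l and -0.025 for Rps27l, and with 1 added to FPKM it was 0.25 for Rpl39l. The cause was not tested. The biological coefficient of variation over all genes was 0.265, with 3 mice a group.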
